A study of Mus musculus with 30 samples.

Results

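Feces of 6 mice fed a high-fructose diet (HFru) and given salidroside were compared with feces of 6 control mice, by sequencing of the bacterial 16S rRNA gene. The members were chosen by their group labels, and they are 12 of the 30 mice of the series. All were female C57BL/6 mice labelled as 6 weeks of age. Control mice ate a normal diet and received saline by gavage. Salidroside mice ate the HFru diet and received 50 mg/kg of salidroside by gavage. Salidroside is the glucoside of tyrosol, a phenylethanoid. Model mice, of which there were also 6, ate the HFru diet with saline and are given beside some results. The salidroside mice differ from the control mice in diet and in the compound, and the effects of these cannot be told apart in this comparison. The question it addresses is how far the bacteria of treated mice still differed from those of mice that never ate the diet. Stool was collected in cages without bedding, and the labels name neither a cage nor a batch.

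The 16S rRNA gene is carried by all bacteria, and differences in its sequence tell bacterial groups apart. An amplicon sequence variant (ASV) is one distinct sequence of the amplified stretch, and ASVs are grouped by taxonomy into genera, families and phyla. In the mouse gut, Bacteroidetes such as the family S24-7 break down plant and host polysaccharides, Firmicutes include fermenting Clostridiales and lactic acid bacteria, and Akkermansia lives on mucin. The values are shares of the counts of a mouse. The bacterial load was not measured, so a lower share and a rise of the other bacteria cannot be told apart.

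The filtered table held 43979 to 91848 counts per salidroside mouse (median 87214) and 41862 to 83876 per control mouse (median 73619). Absence in a mouse therefore allows a share of up to 0.00327% to 0.00717%, which is 3 counts of its total, and such limits cover counting error only. Of the counts of the 12 mice, 25.8% had no named genus. In both groups a large and variable share belonged to 20 listed families of aerobes of skin, feed or surroundings. Together they held 12.7% to 76.4% of the counts of salidroside mice (median 62.4%) and 9.04% to 71.3% of those of control mice (median 37.9%). In model mice they held 55.2% to 93.1%. Their part in the results was not tested, and diversity, distances and counts of called taxa are also given without these families. Control mouse 6 stood apart from the other control mice, as described with the distances, and results that rest on it are given with and without it. It was singled out from these same data, so values without it give no separate support.

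Fewer ASVs were found in salidroside mice than in control mice, but no fewer groups at the level of genera. In the table with 39768 counts per mouse, salidroside mice had 494 to 950 ASVs (median 695) and control mice had 879 to 1320 (median 1130). The groups overlapped, since 2 salidroside mice had more ASVs than the lowest control mouse. The means were 713 ± 206 and 1103 ± 194 (SD, n = 6 each), a difference of -389 (two-sided exact permutation test, p = 0.0152). After adjustment over the 6 indices computed, p was 0.0606, which does not pass the threshold of 0.05. Chao1 richness, which adds an estimate of unseen ASVs, was 847 ± 231 in salidroside mice and 1316 ± 298 in control mice (exact permutation p = 0.0238, adjusted 0.0606). The Shannon index, in base 2, was 5.36 ± 0.744 and 6.25 ± 0.461 (exact permutation p = 0.0303, adjusted 0.0606). Good's coverage, the share of counts that are not singletons, was 0.996 ± 0.00135 and 0.992 ± 0.00274 (exact permutation p = 0.0476, adjusted 0.0714). Both Chao1 and coverage rest on singletons, which had been removed from the filtered table. The unfiltered table at the same depth gave means of 1340 and 2432 for Chao1 and 0.992 and 0.984 for coverage. The Simpson index had means of 0.907 and 0.939 (exact permutation p = 0.190), and Pielou evenness had means of 0.568 and 0.619 (exact permutation p = 0.115). Thus 0 of 6 indices passed after adjustment and 4 of 6 had an unadjusted p under 0.05. Without control mouse 6 the adjusted exact permutation p was 0.0346 for the Shannon index, Chao1 and ASVs, and without salidroside mouse 1 it was 0.0390 for Chao1 and ASVs and 0.0476 for coverage. Without the listed aerobe families the counts were drawn again at 16107 per mouse, not 39768. The difference was then -0.695 for the Shannon index (exact permutation p = 0.268), -288 for ASVs, -462 for Chao1 and 0.00851 for coverage. For each of the last 3 the exact permutation p was 0.0433, adjusted 0.0866. With all families kept, 10000 counts per mouse gave -220 for ASVs, so -288 and -389 differ in depth as well as in families.

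The difference in S24-7 ASVs was -323 of the -389. S24-7 is a family of Bacteroidales also called Muribaculaceae. Salidroside mice had 3 to 44 S24-7 ASVs (median 22), and control mice had 21 to 667 (median 360). Control mice 1 and 6, with 41 and 21, lay within the range of the salidroside mice, and the other control mice had 217 or more. The means were 22.2 and 345 (exact permutation p = 0.0195, adjusted over 66 families 0.161). Over the 6 mice of a group, 88 distinct S24-7 ASVs were seen with salidroside and 1300 in controls, of which 38 were in both. When S24-7 was left out, a choice made after the data were seen, the difference in ASVs was -66.5 (exact permutation p = 0.554). The remaining counts were not thinned again, so mice rich in S24-7 were compared at fewer counts. The value therefore does not give the difference outside S24-7 at an even depth. Enterococcaceae differed the other way, with 26 to 91 ASVs (median 30) in salidroside mice and 0 to 20 (median 5.5) in control mice, ranges that did not overlap (exact permutation p = 0.00216, adjusted 0.0714). Of the 66 families, 0 passed after adjustment. Counted as groups at genus level, salidroside mice had 90 to 120 and control mice 98 to 112, with means of 112 and 105 (exact permutation p = 0.216).

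**Figure D1:**
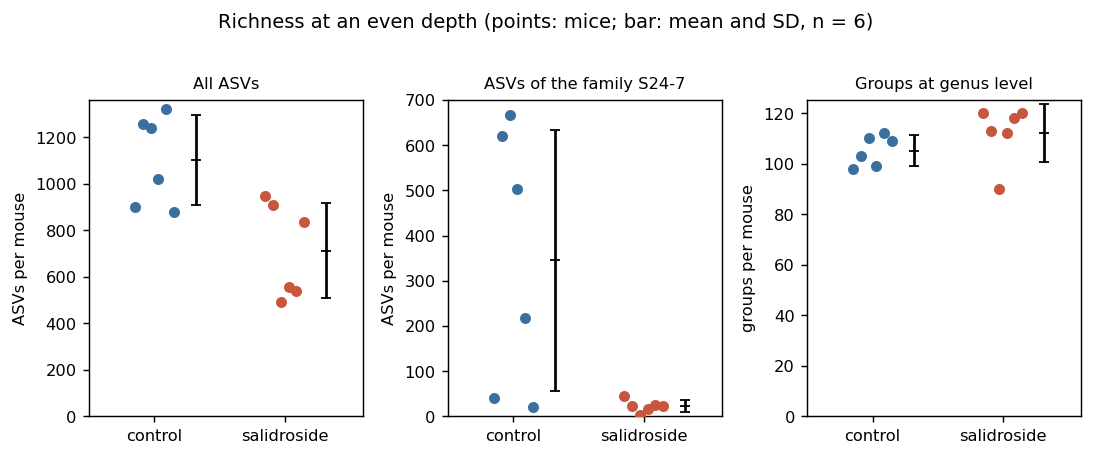
Number of ASVs, of S24-7 ASVs and of groups at genus level per mouse, at 39768 counts per mouse. Points are mice and bars are the mean and SD of 6 mice. The 6 salidroside mice had at most 44 S24-7 ASVs, whereas 4 control mice had 217 or more, and the counts of genera overlapped.

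The ASV profiles differed between the groups. The Bray-Curtis distance, which is 0 for equal and 1 for wholly different profiles, had a mean of 0.882 over the 36 pairs of a salidroside and a control mouse. It was 0.787 within the salidroside group and 0.774 within the control group. Group explained 20.5% of the squared distances (permutational multivariate analysis of variance, R2 = 0.205, exact p = 0.0130 over all splits into 6 and 6). For genera R2 was close to that for ASVs, at 0.201 (exact p = 0.0498). It was smaller for families, at 0.174 (exact p = 0.0909), and phyla, at 0.0970 (exact p = 0.333). Without the listed aerobe families R2 was 0.228 (exact p = 0.00216). The spread around the group centroid differed by 0.0106 (exact permutation p = 0.792).

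Control mouse 6 was nearer to the salidroside mice, at a mean distance of 0.693, than to the other control mice, at 0.861. Control mice 1 to 5 lay at 0.854 or more from the salidroside mice. In control mouse 6 the listed aerobe families held 65.1% of the counts and Acinetobacter alone 55.4%. Without this mouse R2 was 0.270 (exact p = 0.00216). The mouse was singled out from these same distances, so leaving it out favours a larger R2. Salidroside mice 3 and 4 were separated from the other salidroside mice along the second coordinate.

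**Figure D2:**
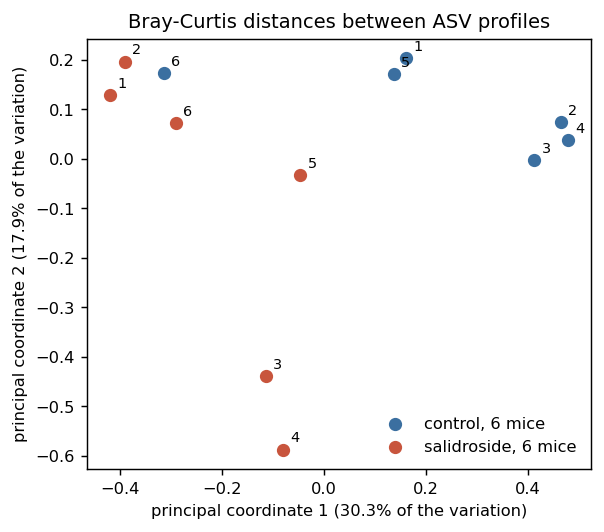
Principal coordinates of Bray-Curtis distances between the ASV profiles of 6 salidroside and 6 control mice. Each point is a mouse with its number, and the axes carry 30.3% and 17.9% of the variation. Control mouse 6 lies among salidroside mice 1, 2 and 6.

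At the level of phyla, edgeR called 3 of 8 (37.5%) at an adjusted p under 0.05, with 1 higher and 2 lower in salidroside mice. A taxon was tested if it reached 10 counts in at least 4 mice. Of the called phyla, Verrucomicrobia and TM7 reached 10 counts in mice of one group only. A taxon of that kind passed the filter through the group where it is high, so here and at the other levels it is described by its counts, without a p, and its call supports nothing further. Verrucomicrobia was higher and is described with its genus Akkermansia. Bacteroidetes made up 0.0751% to 3.02% (median 1.51%) of the counts of salidroside mice and 0.580% to 39.9% (median 23.6%) of those of control mice. The ranges overlapped, because control mice 1 and 6, at 2.25% and 0.580%, were as low as salidroside mice. Bacteroidetes fell by 3.20 ± 0.99 (SE) on the log2 scale (edgeR adjusted p = 0.00471). The exact permutation test of the shares gave p = 0.0368, adjusted 0.0589, and without control mouse 6 an adjusted p of 0.0115. TM7, a group of very small bacteria, had no counts in salidroside mice and 0% to 0.590% (median 0.128%) in control mice, with counts in 5 of 6.

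Firmicutes, at 49.8% ± 34.4 and 42.2% ± 17.2, were not called, and nor were Proteobacteria, at 43.9% ± 35.9 and 34.5% ± 35.7, or Actinobacteria, at 3.35% ± 3.59 and 1.25% ± 0.606 (SD, n = 6, salidroside first). The log2 ratio of Firmicutes to Bacteroidetes was 5.02 ± 3.07 in salidroside mice and 1.999 ± 1.82 in control mice, a difference of 3.02 (exact permutation p = 0.0584). It had an exact permutation p of 0.0260 without salidroside mouse 1 or 2 and of 0.0433 without control mouse 6, so that each of these mice decides on which side of the threshold it lies. The exact permutation test of shares passed for 4 of 8 phyla (50%), of which Verrucomicrobia, TM7 and Tenericutes had passed the filter through one group only. Tenericutes had at most 6 counts in a salidroside mouse and counts in 5 control mice, with means of 0.00154% and 0.0545%, and was not called by edgeR. The other was Deferribacteres, at 0.0982% and 0.0104% (exact permutation adjusted p = 0.0260), which edgeR did not call (adjusted p = 0.106). Without control mouse 6, which held 36 of the 50 counts of control mice, the control mean of Deferribacteres was 0.00389% and edgeR called it higher (log2 difference 5.06, adjusted p = 0.00359), as it did without salidroside mouse 3 (adjusted p = 0.0469). Without the listed aerobe families edgeR called 4 phyla, 1 higher and 3 lower, with Tenericutes among the latter.

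At the level of families, edgeR called 8 of 51 (15.7%), of which 5 were higher (9.8%) and 3 lower (5.88%) with salidroside. Verrucomicrobiaceae, Eubacteriaceae, Prevotellaceae and F16 passed the filter through one group only, and of the 46 families that reached 10 counts in mice of both groups 3 were called higher and 1 lower. The shares of 2 families (3.92%), Verrucomicrobiaceae and Eubacteriaceae, did not overlap between the groups, and 0 passed the exact permutation test of shares after adjustment, against 12 (23.5%) with an unadjusted p under 0.05. Without the listed aerobe families edgeR called 10 of 40, and without control mouse 6 it called 12.

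The lower families were users of polysaccharides and the TM7 family F16. S24-7 made up 0.0250% to 1.11% (median 0.540%) of the counts in salidroside mice and 0.374% to 35.8% (median 16.1%) in control mice. Control mice 2 to 5 were above all salidroside mice, and control mice 1 and 6 were not. The means were 0.574% ± 0.401 and 17.2% ± 16.2 (SD, n = 6). S24-7 fell by 4.08 ± 1.29 on the log2 scale (edgeR adjusted p = 0.0291). This call was lost without salidroside mouse 3, 5 or 6 (edgeR adjusted p = 0.0628, 0.0632 and 0.0525), while without control mouse 6 the adjusted p was 0.0196. Tested among the genera, the same counts lost their call without any single salidroside mouse or without control mouse 2 or 3. The edgeR adjusted p-values were then 0.0539 to 0.0809.

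Prevotellaceae, known for the breakdown of plant fibre, had 2 counts in 1 salidroside mouse and 0% to 1.22% (median 0.198%) in control mice, with counts in 5 of 6. F16 had no counts in any salidroside mouse and 0% to 0.590% (median 0.128%) in control mice, at least 44.6-fold lower with 3 counts per mouse taken as the floor and at least 24.4-fold lower without control mouse 4. Control mouse 6 had counts of neither, and the other control mice had counts of both. Over the 7 families listed as Bacteroidales users of polysaccharides, all were tested, 0 were called higher and 2 lower, S24-7 and Prevotellaceae, against 5.88% lower over all families. Prevotellaceae passed the filter through the control mice only. Their median log2 difference was -2.93, against -0.31 over all 51 families, and 1 of 7 lay above 0. Their summed share was 0.0621% to 2.84% (median 1.19%) in salidroside mice and 0.405% to 39.5% (median 23.4%) in control mice. Bacteroidaceae, at 0.351% and 1.52%, and Rikenellaceae, at 0.180% and 0.627%, were not called (edgeR adjusted p = 0.329 and 0.601).

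The higher families were Verrucomicrobiaceae, Eubacteriaceae, Enterococcaceae, [Mogibacteriaceae] and counts of Lactobacillales without a family. Verrucomicrobiaceae consisted of Akkermansia, which feeds on the mucin of the gut lining. Akkermansia had no counts in the 6 control mice and made up 0.0142% to 2.91% (median 0.483%) in the 6 salidroside mice. The groups did not overlap, and the mean of 0.969% ± 1.17 was at least 218-fold higher than the floor. Without the highest salidroside mouse the bound was 131-fold. Eubacteriaceae, anaerobes of the Clostridiales, made up 0.0338% to 0.282% (median 0.139%) in salidroside mice and had 8 counts in 1 control mouse. All salidroside mice lay above all control mice.

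Enterococcaceae, lactic acid bacteria that tolerate oxygen, made up 0.454% to 28.7% (median 1.83%) in salidroside mice and 0% to 1.69% (median 0.0714%) in control mice. Only control mouse 5 reached the range of the salidroside mice. The log2 difference was 5.78 ± 1.65 (edgeR adjusted p = 0.0144), and the exact permutation p of the shares was 0.0260, adjusted 0.166. [Mogibacteriaceae], another family of Clostridiales, had means of 0.174% and 0.00752% (edgeR adjusted p = 0.0291). Its call was lost without salidroside mouse 4 or 6 or control mouse 2 or 4 (edgeR adjusted p = 0.0716, 0.0525, 0.0649 and 0.0536). As a genus the same counts lost their call without salidroside mouse 1, 4 or 6 or control mouse 1, 2, 3, 4 or 5. The edgeR adjusted p-values were then 0.0641 to 0.119. Lactobacillales without a family had means of 1.23% and 0.0935% (edgeR adjusted p = 0.0116), with an adjusted p of 0.0525 without salidroside mouse 6. Among the genera these counts lost their call without salidroside mouse 1, 4, 5 or 6 or control mouse 1, 2, 3 or 4. The edgeR adjusted p-values were then 0.0530 to 0.110.

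**Figure D3:**
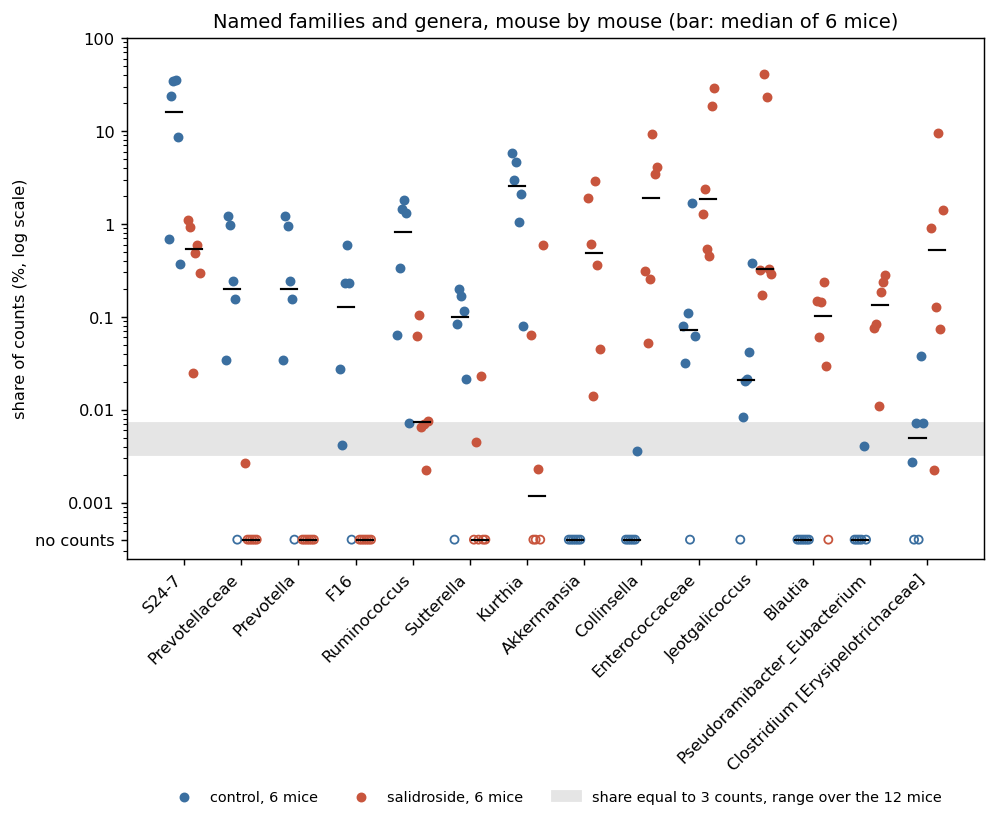
Shares of counts of named families and genera in each mouse, on a log scale, with open points for mice without counts and bars at the median of 6 mice. The grey band is the share that 3 counts make up in the 12 mice. Akkermansia has no counts in the control mice and 0.0142% to 2.91% in salidroside mice, and S24-7 reaches 35.8% in control mice and 1.11% in salidroside mice.

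In the remaining lists of families, up to 2 families were called, against 9.8% higher and 5.88% lower over all 51 families. Of the Clostridiales anaerobes, 2 of 7 tested families were called higher, namely Eubacteriaceae, which passed the filter through salidroside mice only, and [Mogibacteriaceae], and 0 lower, with a median log2 difference of 0.80. Lachnospiraceae, producers of short-chain fatty acids, were at 2.79% ± 2.13 and 1.03% ± 1.40 (edgeR adjusted p = 0.138), and Ruminococcaceae at 0.772% ± 0.489 and 1.68% ± 1.53 (edgeR adjusted p = 0.833). Of the lactic acid bacteria, 1 of 4 was called higher, and their summed share was 17.4% ± 20.8 with salidroside and 15.9% ± 11.5 in controls. Lactobacillaceae were at 0.245% to 33.9% (median 0.696%) and 3.43% to 36.2% (median 12.6%), and were not called (edgeR adjusted p = 0.999). Of the 4 mucus-layer families, 1 was called higher, Verrucomicrobiaceae, which passed the filter through salidroside mice only, and the summed shares were 2.33% ± 1.91 and 1.81% ± 1.44. Helicobacteraceae, at 0.327% and 1.12%, and Desulfovibrionaceae, sulfate reducers, at 0.940% and 0.677%, were not called (edgeR adjusted p = 0.152 and 0.394). Neither of the 2 families of gut Actinobacteria was called, with a summed share of 3.07% ± 3.65 and 0.943% ± 0.783. Erysipelotrichaceae, at 3.96% ± 4.81 and 1.24% ± 1.52, were not called (edgeR adjusted p = 0.138), and nor were Enterobacteriaceae, the only tested family of facultative Proteobacteria, at 8.77% ± 7.87 and 11.3% ± 11.99 (edgeR adjusted p = 0.808).

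Of the 20 listed families of aerobes, 11 were tested and 0 were called, against the 15.7% called over all families. The median of their log2 differences was 0.02. Moraxellaceae, mostly Acinetobacter, made up 0.827% to 74.0% (median 27.4%) in salidroside mice and 0.0501% to 56.1% (median 10.1%) in control mice. The ranges of the groups overlapped. Staphylococcaceae were at 16.4% ± 26.2 and 2.68% ± 2.92 (edgeR adjusted p = 0.283), and Planococcaceae at 5.31% ± 11.1 and 15.1% ± 12.1 (edgeR adjusted p = 0.526). No counts of chloroplasts or mitochondria were found in the 12 mice.

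At the level of genera, edgeR called 26 of 94 (27.7%), with 12 higher (12.8%) and 14 lower (14.9%) in salidroside mice. Of these, 6 higher and 5 lower genera reached 10 counts in mice of one group only. Of the 82 genera that reached 10 counts in mice of both groups, 6 were called higher and 9 lower. The shares of 4 genera (4.26%) did not overlap, all 4 higher with salidroside. After adjustment 0 genera passed the exact permutation test of the shares, against 34 (36.2%) with an unadjusted p under 0.05, and 10 of the 26 edgeR calls held whichever mouse was left out. Of these 10, only Enterococcaceae without a genus, Clostridium of the Erysipelotrichaceae and Planococcaceae without a genus reached 10 counts in mice of both groups. Without the listed aerobe families edgeR called 13 higher and 12 lower, and without control mouse 6 it called 19 and 15.

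Collinsella, a genus of Coriobacteriaceae that ferments sugars, was nearly absent from control mice. It made up 0.0523% to 9.40% (median 1.88%) in salidroside mice and had 3 counts in a single control mouse. The groups did not overlap. A single ASV, ASV_11531, assigned to Collinsella stercoris, held 2.92% of the 2.94%. Enterococcaceae without a genus made up 0.204% to 17.3% (median 0.639%) in salidroside mice and 0% to 0.0675% (median 0.00239%) in control mice, also without overlap (log2 difference 8.60 ± 2.09, edgeR adjusted p = 0.00367). Enterococcus itself, at 0.153% to 11.3% (median 1.18%) and 0% to 1.59% (median 0.0373%), was not called (edgeR adjusted p = 0.0937).

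Among the other genera called higher were anaerobic Clostridiales and Erysipelotrichaceae. Blautia, an acetate producer, had no counts in control mice and 0% to 0.239% (median 0.103%) in salidroside mice, at least 23.3-fold higher. Pseudoramibacter_Eubacterium made up 0.0109% to 0.282% (median 0.135%) in salidroside mice and had 3 counts in 1 control mouse. Peptostreptococcaceae without a named genus were found in 5 salidroside mice, with up to 0.0341%, and no control mouse. Clostridium of the Erysipelotrichaceae was at 0.00227% to 9.42% (median 0.521%) and 0% to 0.0378% (median 0.00494%), and its groups overlapped (edgeR adjusted p = 0.00463). [Eubacterium], also of that family, had means of 0.284% and 0.00286%, with at most 3 counts in a control mouse. Clostridium of the Lachnospiraceae had means of 0.0834% and 0.00306% (edgeR adjusted p = 0.0430). Its call was lost without salidroside mouse 1, 4 or 6 or control mouse 1, 2, 4 or 5, with edgeR adjusted p-values of 0.0613 to 0.0811.

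Jeotgalicoccus, a genus of Staphylococcaceae of the listed aerobes, was also called higher. It made up 0.173% to 40.9% (median 0.325%) in salidroside mice and 0% to 0.375% (median 0.0209%) in control mice, with overlap (log2 difference 7.0 ± 2.26, edgeR adjusted p = 0.0274). The call was lost without salidroside mouse 3 or control mouse 1, 2, 4 or 5, with edgeR adjusted p-values of 0.0587, 0.0516, 0.0520, 0.0516 and 0.0602. Sporosarcina was not tested, since it had counts in 3 salidroside mice only, with up to 28.0%. Fusobacterium had no counts in the 12 mice.

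The genera called lower included Bacteroidetes, Planococcaceae and Clostridiales. Prevotella had no counts in salidroside mice and 0% to 1.21% (median 0.198%) in control mice, at least 107-fold lower and at least 68.8-fold lower without control mouse 2. Rikenella, a relative in the Bacteroidales, had 2 counts in 1 salidroside mouse and 0% to 0.640% (median 0.295%) in control mice. Ruminococcus, which includes degraders of starch and fibre, was at 0.00226% to 0.105% (median 0.00731%) and 0.00717% to 1.80% (median 0.817%), with overlap (log2 difference -4.52 ± 1.49, edgeR adjusted p = 0.0288). Its call was lost without salidroside mouse 1, 3, 4, 5 or 6 or control mouse 2 or 3, with edgeR adjusted p-values of 0.0539 to 0.0916. Coriobacteriaceae without a named genus had means of 0.00817% and 0.263% (edgeR adjusted p = 0.0331). That call was lost without salidroside mouse 1, 2, 3, 5 or 6 or control mouse 2 or 3, with edgeR adjusted p-values of 0.0633 to 0.0792. Veillonellaceae without a named genus had no counts in salidroside mice and 0% to 0.203% (median 0.0294%) in control mice.

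Planococcaceae without a genus, of the listed aerobes, were at 0% to 0.121% (median 0.0266%) in salidroside mice and 0.0347% to 25.6% (median 7.28%) in control mice. The log2 difference was -8.21 ± 2.06 (edgeR adjusted p = 0.00415). Kurthia, a genus of the same family, was at 0% to 0.597% (median 0.00117%) and 0.0789% to 5.75% (median 2.54%), and just missed the threshold (edgeR adjusted p = 0.0505). Acinetobacter, Lactobacillus, Staphylococcus, Shigella and Oscillospira were not called. Acinetobacter was at 32.4% ± 29.8 and 20.5% ± 25.0, Lactobacillus at 8.23% ± 13.6 and 14.0% ± 11.7, Staphylococcus at 4.18% ± 6.53 and 2.56% ± 2.77, Shigella at 3.04% ± 3.52 and 7.46% ± 10.6, and Oscillospira at 0.551% ± 0.434 and 0.689% ± 0.645 (SD, n = 6). Their edgeR adjusted p-values were 0.970, 0.851, 0.665, 0.459 and 0.917.

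Of the 7525 ASVs of the 12 mice, 344 had at least 10 counts in at least 4 mice and were tested. edgeR called 127 (36.9%), with 32 higher (9.3%) and 95 lower (27.6%) in salidroside mice. Of the 344, 132 reached 10 counts in mice of one group only, and 123 of the 127 calls were among them, 31 higher and 92 lower. They passed the filter through the group where they are high, so these calls describe presence and give no support beyond it. All 115 ASVs that had no counts at all in one of the groups were called. Of the 212 ASVs that reached 10 counts in mice of both groups, 1 was called higher and 3 lower. The exact permutation test of shares passed for 16 ASVs (4.65%), and the shares of 16 (4.65%) did not overlap, 12 higher (3.49%) and 4 lower (1.16%). All of these ASVs reached 10 counts in mice of 1 group only, so this test gives no support beyond presence either. The count of lower ASVs depended on which control mouse was left out. It was 34, 36, 27 and 28 without control mouse 2, 3, 4 or 5, and 81 and 96 without control mouse 1 or 6. Without the listed aerobe families edgeR called 32 higher and 87 lower.

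Of the 66 S24-7 ASVs tested, 48 had no counts in any salidroside mouse, and of the 15 that reached 10 counts in mice of both groups 0 were called. Of the 14 Coriobacteriaceae ASVs, 9 had no counts in salidroside mice, and of the 3 that reached 10 counts in mice of both groups 0 were called. Of the 12 Planococcaceae ASVs, 7 had no counts in salidroside mice, and of the 4 that reached 10 counts in mice of both groups 1 was called lower. Of the 11 Enterococcaceae ASVs, 6 had no counts in control mice, and 0 of the 5 others were called. All 91 Moraxellaceae ASVs tested reached 10 counts in mice of both groups, and 0 were called. ASVs of one family occur in the same mice and one bacterium can carry several, so they are not independent.

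**Figure D4:**
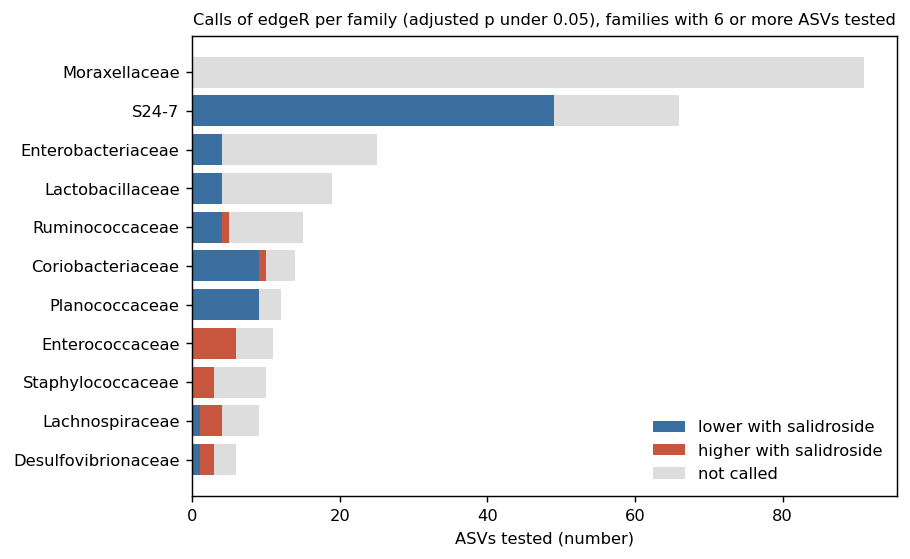
Number of ASVs tested and called by edgeR at an adjusted p under 0.05, in the families with at least 6 ASVs tested. Of 66 S24-7 ASVs 49 were lower with salidroside, of 11 Enterococcaceae ASVs 6 were higher, and of 91 Moraxellaceae ASVs 0 were called. Over all 344 ASVs, 27.6% were lower and 9.3% higher. Of the 127 calls, 115 are of ASVs with no counts in one of the groups, among them 48 of the 49 of S24-7 and all 6 of Enterococcaceae.

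ASV_8842 of S24-7 had no counts in salidroside mice and 0.0143% to 4.91% (median 0.655%) in all 6 control mice, without overlap. It was at least 298-fold lower, and at least 115-fold lower without control mouse 4. ASV_38503, another S24-7 ASV, had no counts in salidroside mice and 0.00837% to 1.77% (median 0.736%) in control mice, also without overlap. Also without counts in salidroside mice were the S24-7 ASVs ASV_74295, with 0% to 4.22% (median 0.486%) in control mice, and ASV_85809, with 0% to 2.79% (median 0.617%). ASV_2793, assigned to Bacteroides acidifaciens, had no counts in salidroside mice and 0% to 4.04% (median 0.111%) in control mice. ASV_61181 of the Enterobacteriaceae had 5 counts in 1 salidroside mouse and 0% to 4.38% (median 0.183%) in control mice. ASV_83170, assigned to Lactobacillus helveticus, had no counts in salidroside mice and 0% to 2.46% (median 0.655%) in control mice, although the genus as a whole was not called. ASV_45355 of the Planococcaceae had 0% to 21.9% (median 5.34%) in control mice, where 4 had counts, and 77 counts in 1 salidroside mouse (edgeR adjusted p = 0.00399).

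Among the ASVs called higher, ASV_44518 of Enterococcus made up 0.0909% to 6.53% (median 0.287%) in salidroside mice and had no counts in control mice. It was at least 420-fold higher, and at least 210-fold higher without salidroside mouse 5. ASV_81202 and ASV_1360, Enterococcaceae without a genus, made up 0.0120% to 6.02% (median 0.214%) and 0.0159% to 3.93% (median 0.104%) in salidroside mice and had no counts in control mice. ASV_7902, assigned to Akkermansia muciniphila, made up 0.0142% to 2.91% (median 0.446%) in salidroside mice. ASV_7349, Lachnospiraceae without a genus, made up 0% to 3.09% (median 0.998%) in salidroside mice and had no counts in control mice. ASV_80110, assigned to Clostridium ramosum, made up 0% to 8.42% (median 0.487%) in salidroside mice and had 7 counts in control mice. ASV_48019, assigned to Jeotgalicoccus psychrophilus, was at 0.146% to 30.1% (median 0.223%) and 0% to 0.224% (median 0.0173%), so that its groups overlapped (edgeR adjusted p = 0.0227).

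In 7 named genera, some ASVs were called higher and others lower, while the genus was not called. Except for ASV_8463 of Desulfovibrio these ASVs had no counts in one of the groups, so they are described by presence, with no test. Helicobacter, a genus of the mucus layer, showed this pattern in every mouse. ASV_86713 of Helicobacter made up 0.0540% to 0.616% (median 0.291%) in control mice and had no counts in salidroside mice (at least 71.8-fold lower). ASV_87123 of Helicobacter made up 0.0120% to 0.283% (median 0.112%) in salidroside mice and had no counts in control mice (at least 29.0-fold higher). Neither had counts in model mice. For the genus as a whole the means were 0.258% ± 0.165 and 0.456% ± 0.438 (edgeR adjusted p = 0.443).

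ASVs of both kinds were also seen in Odoribacter, AF12, Bacteroides, Parabacteroides, Oscillospira and Desulfovibrio. In Parabacteroides, ASV_43647 was found in 5 control mice, with up to 0.508%, and no salidroside mouse, and ASV_89540, assigned to Parabacteroides distasonis, in 5 salidroside mice, with up to 0.0730%, and no control mouse. The genus had means of 0.188% and 0.216% (edgeR adjusted p = 0.938). In Oscillospira, ASV_48978 was found in 4 control mice, with up to 0.853%, and no salidroside mouse, and ASV_5657 in 5 salidroside mice, with up to 0.940%, and no control mouse. In Odoribacter, ASV_19634 and ASV_71746 were found in 5 control mice, with up to 1.95% and 0.155%, and ASV_2594 in 5 salidroside mice, with up to 0.0898%. Control mouse 6 lacked all of these control ASVs except that of Helicobacter.

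**Figure D5:**
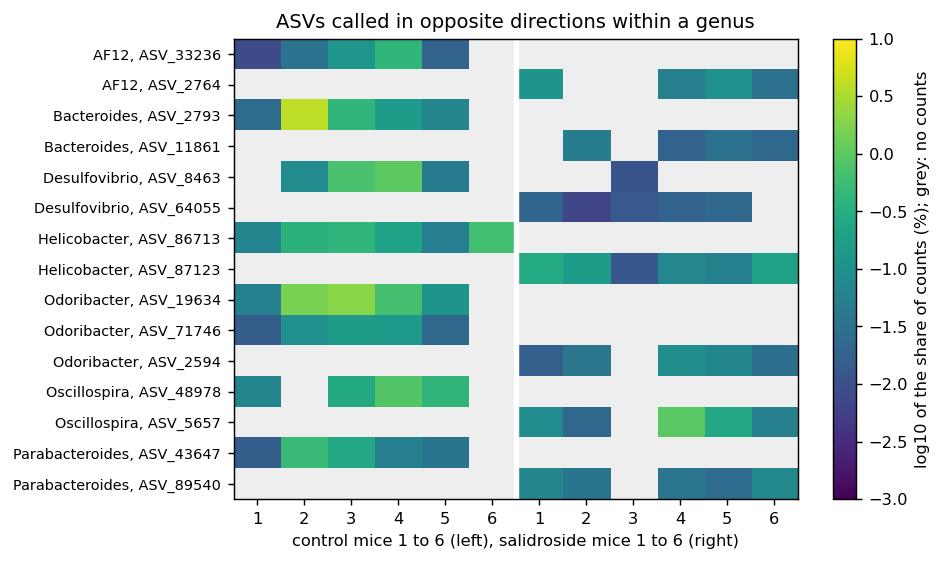
Shares of the ASVs called in opposite directions within a genus, for 7 named genera, in 6 control mice (left) and 6 salidroside mice (right). Colour is the log10 of the share in percent and grey marks no counts. ASV_86713 of Helicobacter is in all 6 control mice and ASV_87123 in all 6 salidroside mice.

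The model mice, which ate the HFru diet without salidroside, are given beside the salidroside mice, each in a fit of its own, and the comparisons share the control or the salidroside mice. S24-7 had a mean of 0.252% in model mice and 0.574% in salidroside mice (log2 difference 1.08, edgeR adjusted p = 0.558), against 17.2% in control mice, in a fit where 17.6% of 51 families were called. Akkermansia had a mean of 1.07% in model mice and 0.969% in salidroside mice (edgeR adjusted p = 0.969). Enterococcaceae were at 4.02% in model mice and 8.65% in salidroside mice (edgeR adjusted p = 0.987), and Bacteroidetes at 1.10% and 1.59% (edgeR adjusted p = 0.960), in a fit where 0 of 7 phyla were called. Blautia, with 0.132% and 0.103%, had an edgeR adjusted p of 0.904. A p that misses the threshold does not show that these shares were equal. Collinsella had 6 counts in 1 model mouse, a mean of 0.000996%, and a mean of 2.94% in salidroside mice, in a fit where 4.21% of 95 genera were called. ASV_1360 of the Enterococcaceae had no counts in model mice and a mean of 0.979% in salidroside mice, in a fit where 4.19% of 358 ASVs were called.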

How the data were processed

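Groups came from the sample labels, and mice carry the numbers of their titles. The authors merged reads with FLASH, filtered them with QIIME and removed chimeras, the processing notes name cutadapt, and the deposited values are raw counts per sequence with a taxon each (taxonomy database not given in the sources used here). The methods describe clusters of similar sequences, but the read log lists denoising and the rows are named as ASVs, the term used here. Shares and edgeR tests used the filtered table, from which singletons had been removed. Diversity used the table that the authors thinned to 39768 counts per mouse. The 0.234% of counts without a phylum were left out of tests above ASVs. "Without a genus" means not assigned at that rank, and "without a named genus" a database entry that has no name there.

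Taxa that reached 10 counts in 4 or more of the 12 mice were tested with edgeR 4.0.16 (quasi-likelihood, TMM, R 4.3.3), and shares, indices and Bray-Curtis distances with two-sided exact permutation tests, whose smallest p for 6 against 6 is 0.00216. Adjusted p-values are Benjamini-Hochberg over all taxa of a level. DESeq2 1.42.0 and limma 3.58.1 served as alternatives. The p-values set the group difference against the spread between these mice, which are treated as independent although their cages are not known. Of 30 pairs within groups 0 had identical counts, which does not show independence. Procedures were tested on simulated data. At least N-fold compares the mean with 3 counts per mouse.

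The rule took the phyla and genera discussed in the study, called families and genera (12 smallest p per direction), called ASVs (8 largest differences per direction) and the largest members of family lists. Of these, called genera that only repeat their family's counts are mentioned with the family at most. Some whose call was lost when a mouse was left out are not described. Others were chosen after their values were seen. The members and lists were chosen with earlier results of these data known.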

Additional observations from a re-analysis of the deposited data

Results flagged for a closer look

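Of 94 sets of 6 values examined (indices, distances and shares of named taxa with counts), 25 had a highest value whose gap to the next exceeded Dixon's 95% critical value for the share of the whole range. Chance flags about 1 in 20 such sets when values are normally distributed. In control mice, Enterococcaceae reached 1.69% (median 0.0714%), Enterococcus 1.59%, Enterococcaceae without a genus 0.0675%, Lactobacillales without a family 0.338% at both levels, and Lactobacillus 36.2% (median 12.6%). Jeotgalicoccus reached 0.375%, Wautersiella 0.988%, [Prevotella] 0.993% and Planococcaceae without a named genus 2.32% in control mice. Taxa at or near 0 in the other control mice reached 0.0108% (Eubacteriaceae), 0.00405% (Pseudoramibacter_Eubacterium), 0.00359% (Collinsella), 0.0143% (Clostridium of the Lachnospiraceae) and 0.0378% (Clostridium of the Erysipelotrichaceae). In salidroside mice, Staphylococcus reached 16.6% (median 0.691%), Clostridium of the Erysipelotrichaceae 9.42% (median 0.521%), [Mogibacteriaceae] 0.662% at both levels and Kurthia 0.597%. Other single high values in salidroside mice were 0.00268% (Prevotellaceae and Rikenella), 0.0722% (Planococcaceae without a named genus), 0.0387% (Wautersiella) and 0.0408% ([Prevotella]). Wautersiella and [Prevotella] were called lower, but were called in only 5 and 4 of 12 fits with 1 mouse left out, with edgeR adjusted p-values of up to 0.190 (without control mouse 1) and 0.281 (without control mouse 2).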

How the results depend on the processing

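With the unfiltered table the adjusted exact permutation p of the Shannon index (-0.939), Chao1 (-1092), ASVs (-576) and Good's coverage (0.00783) passed the threshold, as it did at 10000 counts per mouse (-0.861, -380, -220 and 0.0102). At genus level Chao1 (7.34), observed groups (7.0) and Good's coverage (-3.35e-05) changed direction, as did the Simpson index without S24-7 (0.00291), with 0 of these past the threshold. R2 was no longer past the threshold per family (0.174) or phylum (0.0970), levels added after seeing the data, and the difference in distance to control mice (0.108) was 0.0409 per phylum. The difference in spread changed direction with Jaccard distance (-0.00993) and square-root shares (-0.000887). Called phyla were 5 with centred log-ratios. Called families were 13 without TMM (5 higher), against 5 higher of 8 with TMM. DESeq2 gave 6 higher and 6 lower, centred log-ratios 4 and 4, the even-depth counts 5 and 7 and the table without aerobes 5 and 5. Called genera were 9 at a minimum of 50 counts, and TMM with singleton pairing gave 16 higher and 9 lower and the even-depth counts 16 and 7, against 12 and 14. ASVs called were 41 at 50 counts and 0 without a filter (2312 at an unadjusted p under 0.05), where 7525 were tested. The change of a taxon's log2 difference with scaling had a median of up to 1.11 (ASVs, centred log-ratios), and the median difference of the 8 phyla went from 1.13 to -0.10 with singleton pairing and -0.19 without aerobes, but 0 called taxa changed direction. Among shares not called, Firmicutes (-0.0442, log10 shares), Proteobacteria (-3.80, without aerobes) and Oscillospira (0.266 without Acinetobacter, 0.491 without aerobes) changed direction. The cause was not tested.

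Leaving out 1 mouse at a time gave -1.05 to -0.659 for the Shannon index, -0.0436 to -0.0179 for the Simpson index, -0.0651 to -0.0321 for evenness, -535 to -409 for Chao1, -437 to -345 for ASVs and 0.00241 to 0.00363 for coverage. R2 was 0.187 to 0.270, the spread -0.0247 to 0.0489, the distance 0.0679 to 0.189 and the Firmicutes to Bacteroidetes difference 2.01 to 3.66. It gave 2 to 5 phyla, 5 to 12 families, 12 to 34 genera and 57 to 137 ASVs, and -0.865 (without salidroside mouse 3) to 2.40 for the share of Staphylococcus and -0.289 to 0.0770 (without control mouse 4) for Oscillospira.

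The replicate numbers do not pair the mice, with correlations of -0.10 to 0.40 over 82 genera and 2 of 6 salidroside mice nearest to their own number. With replicate number as a block edgeR called 4 phyla, 5 families, 18 genera and 58 ASVs, and the exact p was 0.0938 for ASVs, 0.0313 for R2 and 0.156 for the Firmicutes to Bacteroidetes ratio. With 6 mice per group and these depths, a share of up to 0.00717% can give no counts in a mouse.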

Other observations

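At even depth the 12 mice had 6650 ASVs, 2848 in salidroside mice, 4544 in control mice and 742 in both. The shared ASVs were 26.1% of those of salidroside mice and 16.3% of those of control mice, and they held 70.3% and 66.5% of the counts. Only 7 ASVs were in all 12 mice, and 4855 were in a single mouse. Found in all 6 salidroside mice and no control mouse were 9 ASVs, and 4 were found in all 6 control mice and no salidroside mouse. Among the ASVs singled out here after their values were seen, ASV_21297, assigned to Mucispirillum schaedleri of the mucus layer, was in 6 salidroside mice (0.00436% to 0.0617%) and no control mouse. ASV_13600 of Allobaculum was in 5 salidroside mice, with up to 1.44%, and ASV_27772 of Coprococcus in 5, with up to 0.244%, and neither had counts in control mice. ASV_22399 of Lactobacillus was in 6 control mice (0.0143% to 0.296%) and ASV_20416 of Adlercreutzia in 5, with up to 0.408%, and neither had counts in salidroside mice.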
